A study of Mus musculus with 6 samples.

Results

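*Acsbg2*, *1700061G19Rik*, *Slc25a41* and *Dennd1c* lie close to *Khsrp* on mouse chromosome 17, and all 4 showed higher scaled signal in *Khsrp*-/- than in wild type (WT) neocortex. They are 4 of the 1714 genes that could be named on these arrays, and they were chosen by their symbols as genes that flank *Khsrp*. The symbols came from a published list of genes that had been selected as higher or lower on the same arrays, and all 4 stood in its higher block. Their differences between genotypes are therefore given as a description, without p-values, and are no independent evidence of a direction. Counts of the genes past a threshold, where given, repeat the contrast that named them and test nothing.

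RNA was taken from the neocortex of adult male mice, 3 *Khsrp*-/- and 3 WT, and each mouse gave 1 array. The sample labels give the tissue as CTX and the study's text as neocortex. The published list heads the columns of the same arrays PFC, a short form the paper uses for prefrontal cortex. The *Khsrp*-/- mice carry a deletion of much of *Khsrp* in every cell of the body and had been crossed to C57Bl/6 over many generations, and the series description places the WT mice in the litter of the *Khsrp*-/- mice. The labels name no agent given to either group. RNA freed of rRNA was labelled with random and oligo(dT) primers and hybridized in 1 colour, and the processed signal is the brightness of a spot after subtraction of the background. Each sample was whole tissue, so that fewer cells of a type and less RNA per cell cannot be told apart. *Khsrp* itself was not analysed here, and the genotypes rest on the sample labels.

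Between 71.6% and 82.9% of the spots on an array were well above background. On the log2 scale, the 75th percentile of the signal averaged 8.61 on *Khsrp*-/- and 8.90 on WT arrays, and it was subtracted on each array to give the scaled log2 signal. Subtracting it added 0.29 to the log2 difference between the means of *Khsrp*-/- and WT for every probe. Equal scan times were used to assign arrays to slides, which put *Khsrp*-/- 1 and WT 3 on 1 slide, *Khsrp*-/- 2 and 3 on another, and WT 1 and 2 on another. Only the slide of *Khsrp*-/- 1 and WT 3 held both genotypes, and between these arrays the scaling changed every log2 difference by -0.12. Of 32 marker genes for cell types of the cortex, blood and testis, only *Snap25* of neurons and *Slc1a2* of astrocytes had a named probe. Both were well above background on all 6 arrays and stood in the same higher block. Their scaled log2 signal was higher in *Khsrp*-/- neocortex, by 0.55 for *Snap25* and 0.48 for *Slc1a2*, which is more than for *1700061G19Rik* (0.40) and *Dennd1c* (0.39), and their part in the results was not tested. None of the 4 markers of male germ cells and none of the 7 of microglia and leukocytes could be read.

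KHSRP is a protein that binds AU-rich stretches of mRNAs and promotes their decay. ACSBG proteins, the bubblegum family of acyl-CoA synthetases, join coenzyme A to long fatty acids so that the cell can store, build with or burn them, and *Acsbg2* is best known from the testis. SLC25A41 is a carrier of the inner mitochondrial membrane from the family that exchanges ATP-Mg for phosphate. DENND1C carries a DENN domain, the part of a protein that loads Rab GTPases with GTP during membrane traffic.

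The reference annotation GRCm38.p6 gave the order of genes along the chromosome. *Slc25a41* was the nearest coding gene on the one side of *Khsrp*, with 0 genes between. *Slc25a23* and *Crb3* followed, and then *Dennd1c*, which had 3 coding genes between it and *Khsrp*. On the other side, *Gtf2f1*, *Pspn*, *Alkbh7*, *Clpp*, *Acer1* and *Mllt1* stood between *Khsrp* and *1700061G19Rik*, a gene that this annotation calls *Acsbg3*. *Acsbg2* came next, with 7 coding genes between it and *Khsrp*, so that the pair of acyl-CoA synthetase genes were direct neighbours. Beyond the pairs at each end lay *Rfx2* and *Tubb4a*.

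Within 500 kb of *Khsrp* the annotation held 35 other coding genes, of which the 4 described here had a named probe and 31 had none. All 4, or 11.4% of the 35, stood in the higher block of the published list. Over chromosome 17 this block held 51 of 1058 coding genes (4.82%), and over all chromosomes 6.61% of 21900. The lower block, as used here, had only 266 entries against 1459 gene symbols in the higher block, so shares of genes in it are not given. The 31 genes without a name are not analysed here, so their levels are unknown in both genotypes. The genes of this neighbourhood were chosen with their place in the list known, and nothing is read from these shares.

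**Figure D1:**
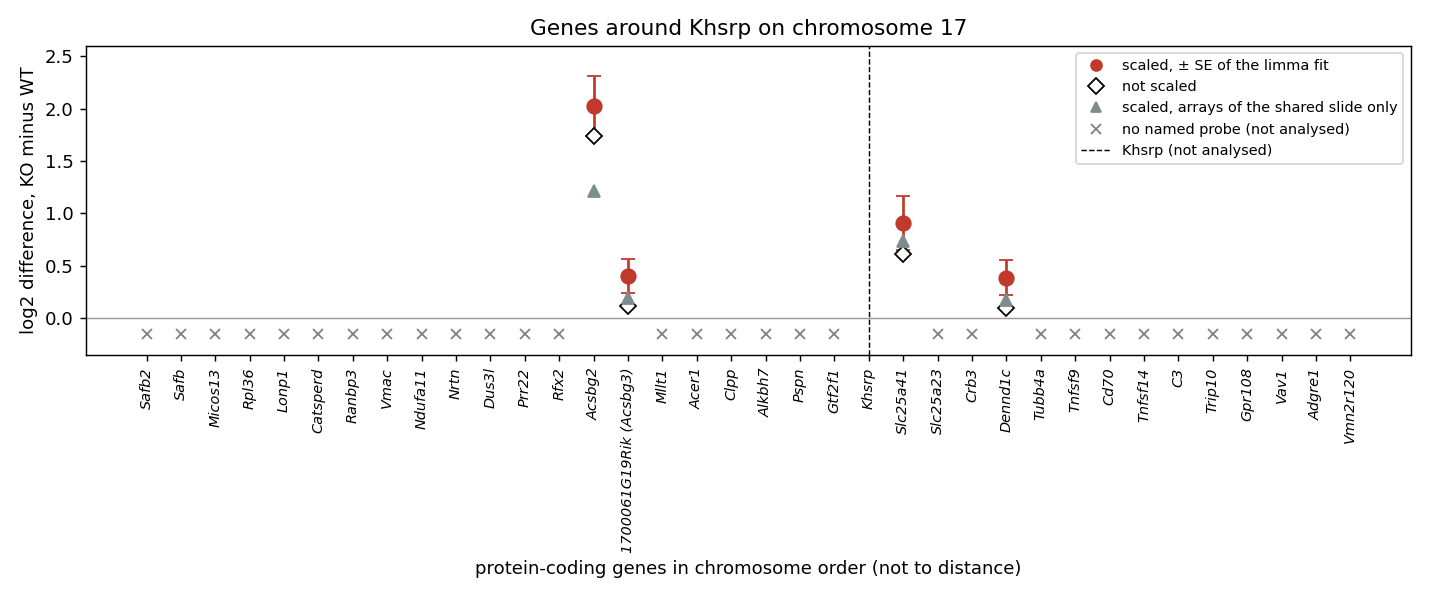
Log2 difference of *Khsrp*-/- minus WT (vertical axis) for the coding genes within 500 kb of *Khsrp*, in chromosome order and not to distance. Filled circles give the scaled difference with the SE of the limma fit, open diamonds the difference without scaling, triangles the difference on the shared slide, and crosses the 31 genes without a named probe. *Acsbg2* stood highest at 2.03 and *Slc25a41* followed at 0.91, while *1700061G19Rik* and *Dennd1c* lay near 0.40 and 0.39.

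RefSeq promoter sequences were at hand for 2 of the 4 genes. Each covers 300 bases, 250 before and 50 after the start of the gene, read 5′ to 3′ on the strand of the gene in GRCm38.p6. They are shown because only these 2 had an entry, and one gene lies on each side of *Khsrp*. A link between the sequences and the differences between genotypes was not tested. A set of 5 short motifs was searched on both strands, and matches are in capitals. They were the TATA box (TATAAA), the CCAAT box (CCAAT), the GC box (GGGCGG), the E-box (CACGTG) and the cAMP response element (TGACGTCA), none of which matched in overlap with another. The promoter of *1700061G19Rik* lies at chr17:56875234-56875533 on the plus strand, and that of *Dennd1c* lies at chr17:57078449-57078748 on the minus strand.
1700061G19Rik: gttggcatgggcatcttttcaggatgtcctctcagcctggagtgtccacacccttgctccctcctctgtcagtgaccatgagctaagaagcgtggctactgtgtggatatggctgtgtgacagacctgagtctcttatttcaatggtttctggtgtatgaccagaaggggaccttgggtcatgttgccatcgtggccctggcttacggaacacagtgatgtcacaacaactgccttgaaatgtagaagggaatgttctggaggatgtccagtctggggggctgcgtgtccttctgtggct
Dennd1c: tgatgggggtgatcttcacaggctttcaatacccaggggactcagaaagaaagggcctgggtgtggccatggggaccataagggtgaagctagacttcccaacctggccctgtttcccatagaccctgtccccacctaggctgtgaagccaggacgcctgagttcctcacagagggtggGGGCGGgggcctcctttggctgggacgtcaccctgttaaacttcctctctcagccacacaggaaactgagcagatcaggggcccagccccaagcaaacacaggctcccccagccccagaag
The window of *1700061G19Rik* held 0 of the motifs. That of *Dennd1c* held 1 match, of GGGCGG, which 35.7% of 32851 promoters of the same length also hold. The other motifs were found in 13.6% (TATAAA), 37.4% (CCAAT), 7.15% (CACGTG) and 1.79% (TGACGTCA) of these promoters. G and C made up 52.7% of the bases of the *1700061G19Rik* window and 59.7% of the *Dennd1c* window, against a median of 52.7% over all promoters. With 4 and 3 CpG dinucleotides, both windows held fewer than the median promoter, which had 7.

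*Acsbg2* showed the largest difference of the 4 genes. Its processed signal was 47.2, 52.6 and 40.7 on *Khsrp*-/- arrays 1, 2 and 3, and 13.0, 11.2 and 18.65 on WT arrays 1, 2 and 3. Every *Khsrp*-/- array lay above every WT array, and the scanner software's own error of the signal was between 3.36 and 6.59. The probe was well above background on 3 of 3 *Khsrp*-/- arrays and on 1 of 3 WT arrays, WT 3. WT neocortex was thus close to the limit of what the probe could read. Spots of 15 probes named as negative controls were set beside it, although between 12 and 39 of these spots on an array were themselves marked well above background. None of the 278, 284 and 284 such spots on *Khsrp*-/- arrays 1, 2 and 3 reached the *Acsbg2* signal, whereas 13.7%, 17.1% and 13.5% of them did so on WT arrays 1, 2 and 3.

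After scaling, the log2 signal of *Acsbg2* was -3.32, -2.78 and -3.11 in *Khsrp*-/- and -5.25, -5.51 and -4.54 in WT neocortex. The means were -3.07 ± 0.27 (SD, n = 3) and -5.10 ± 0.50 (SD, n = 3). They differed by 2.03 (SE 0.28), or 4.08-fold, a value that rests in part on the WT 1 and WT 2 spots that were not well above background. The lowest *Khsrp*-/- array lay 1.22 above the highest WT array, more than either SD. That gap was also the difference on the shared slide, since with scaling *Khsrp*-/- 1 was the lowest and WT 3 the highest array of its genotype. Without scaling the difference on that slide was 1.34. Between the slides that held 1 genotype each, the difference was 2.44, and neither of the WT spots behind it, WT 1 and WT 2, was well above background. With such spots raised to the lowest signal that was well above background on their array, the difference was 1.74, or 3.33-fold. Without scaling it was 1.74 as well, or 3.34-fold, and the genotypes did not overlap.

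*1700061G19Rik*, the neighbouring acyl-CoA synthetase gene, was read well above background on all 6 arrays. *Khsrp*-/- arrays 1, 2 and 3 gave processed signals of 166.8, 169.8 and 149.0, and WT arrays 1, 2 and 3 gave 157.2, 158.8 and 133.9. These signals overlapped between genotypes, since *Khsrp*-/- 3 lay below WT 1 and WT 2. After scaling, the log2 signal was -1.498, -1.08 and -1.24 in *Khsrp*-/- and -1.65, -1.68 and -1.69 in WT neocortex. Here the genotypes no longer overlapped, although the lowest *Khsrp*-/- array was only 0.16 above the highest WT array. The scaled means of -1.27 ± 0.21 and -1.68 ± 0.02 (SD, n = 3 each) differed by 0.40 (SE 0.16), or 1.32-fold. With scaling, the WT arrays were tightly grouped and nearly all of the spread came from *Khsrp*-/- arrays. Without scaling this was not so, with an SD of 0.10 in *Khsrp*-/- and 0.14 in WT neocortex. Without scaling the difference fell to 0.11, or 1.08-fold, and on the shared slide it was 0.19 with scaling, or 1.14-fold, and 0.32 without.

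*Slc25a41*, the gene of the mitochondrial carrier next to *Khsrp*, was dim. Processed signals were 31.3, 33.1 and 29.05 in *Khsrp*-/- neocortex, and 29.65, 16.35 and 17.2 in WT neocortex. WT 1 lay between *Khsrp*-/- 1 and 3, while WT 2 and 3 lay well below all *Khsrp*-/- arrays. The probe was well above background on 3 of 3 *Khsrp*-/- and 2 of 3 WT arrays, the exception being WT 2. Some negative control spots were at least as bright on every array, making up 8.63%, 0.352% and 1.76% of them in *Khsrp*-/- and 12.6%, 13.3% and 13.5% in WT neocortex. The gene was thus near the limit of detection in both genotypes.

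The scaled log2 signal of *Slc25a41* was -3.91, -3.44 and -3.60 in *Khsrp*-/- and -4.06, -4.96 and -4.65 in WT neocortex. The means were -3.65 ± 0.24 (SD, n = 3) and -4.56 ± 0.46 (SD, n = 3), a difference of 0.91 (SE 0.26) or 1.88-fold. The genotypes were separated by 0.15, with WT 1 just below *Khsrp*-/- 1, so that this array set how close they came. On the shared slide the difference was 0.74, or 1.67-fold, with scaling and 0.86 without, and between the other slides it was 0.99. Without scaling it was 0.62, or 1.53-fold, and WT 1 overlapped *Khsrp*-/- 3. Raising the WT 2 spot to the lowest signal well above background on that array left 0.89.

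*Dennd1c*, the Rab exchange factor gene, was well above background on all 6 arrays, and no negative control spot reached its signal. Processed signals were 1026, 900.0 and 1054 in *Khsrp*-/- neocortex, and 941.3, 1010.0 and 837.1 in WT neocortex. The genotypes overlapped, with *Khsrp*-/- 2 below both WT 1 and WT 2. After scaling, the log2 signal was 1.12, 1.32 and 1.58 in *Khsrp*-/- and 0.93, 0.99 and 0.95 in WT neocortex, and every *Khsrp*-/- array lay above every WT array. The scaled means of 1.34 ± 0.23 and 0.96 ± 0.03 (SD, n = 3 each) differed by 0.39 (SE 0.17), or 1.31-fold. The lowest *Khsrp*-/- array was 0.13 above the highest WT array. Without scaling the difference was 0.10, or 1.07-fold, and on the shared slide it was 0.17 with scaling, or 1.13-fold, and 0.29 without.

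**Figure D2:**
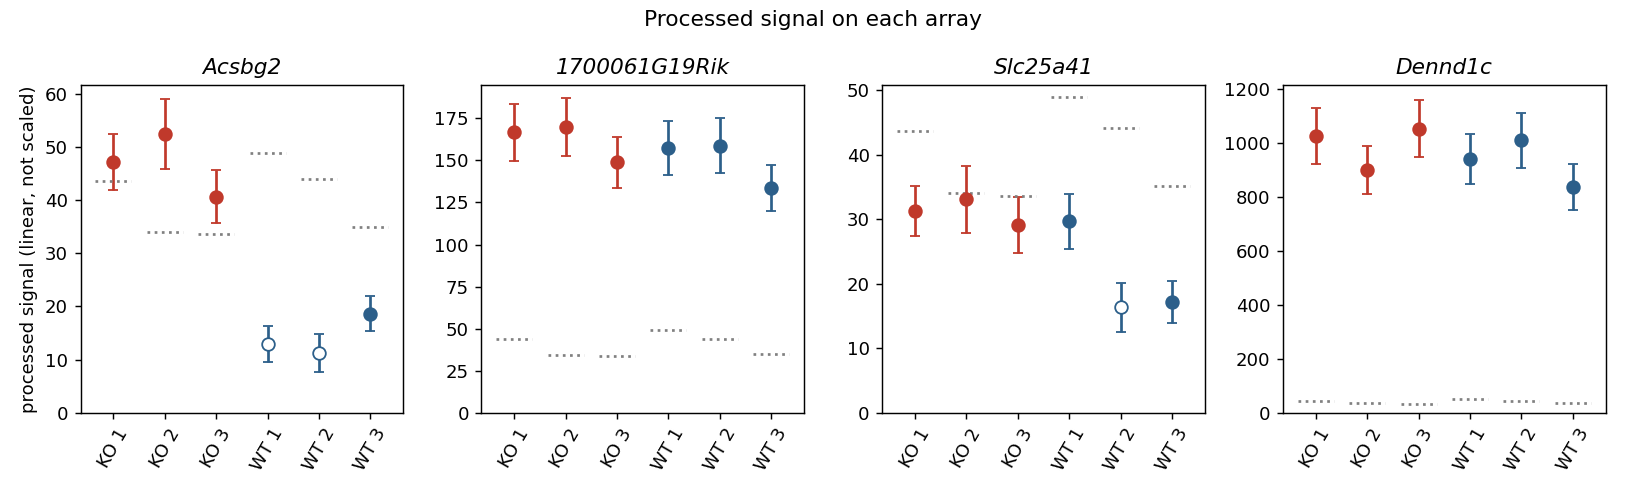
Processed signal (linear scale, not scaled between arrays) of each gene on each of the 6 arrays, with the scanner software's error estimate as bars. Open circles are spots that were not well above background, and dotted lines mark the brightest negative control spot of each array. The *Khsrp*-/- and WT arrays stand apart for *Acsbg2*, while they overlap for *1700061G19Rik*, *Slc25a41* and *Dennd1c*.

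By how clearly they were detected, the 4 genes thus fell into 2 pairs. *1700061G19Rik* and *Dennd1c* were clearly detected and had small differences with scaling, of which 0.29 was added by the scaling. *Acsbg2* and *Slc25a41* were dim and had larger differences, which were 1.74 and 0.62 without scaling. With scaling, all 4 genes had *Khsrp*-/- arrays wholly above WT arrays, as had 12.4% of all probes. Without scaling only *Acsbg2* did, as had 4.20% of all probes. The study's fold threshold, a log2 difference of 0.32, was reached by 4 genes with scaling (18.6% of all probes) and by 2, *Acsbg2* and *Slc25a41*, without it (6.55% of all probes). The median difference of the 4 genes was 0.65 with scaling and 0.36 without, and that of all probes tested was 0.00 and -0.29. The genes were chosen from probes listed as higher in this same contrast, so nothing is read from the counts against these shares.

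**Figure D3:**
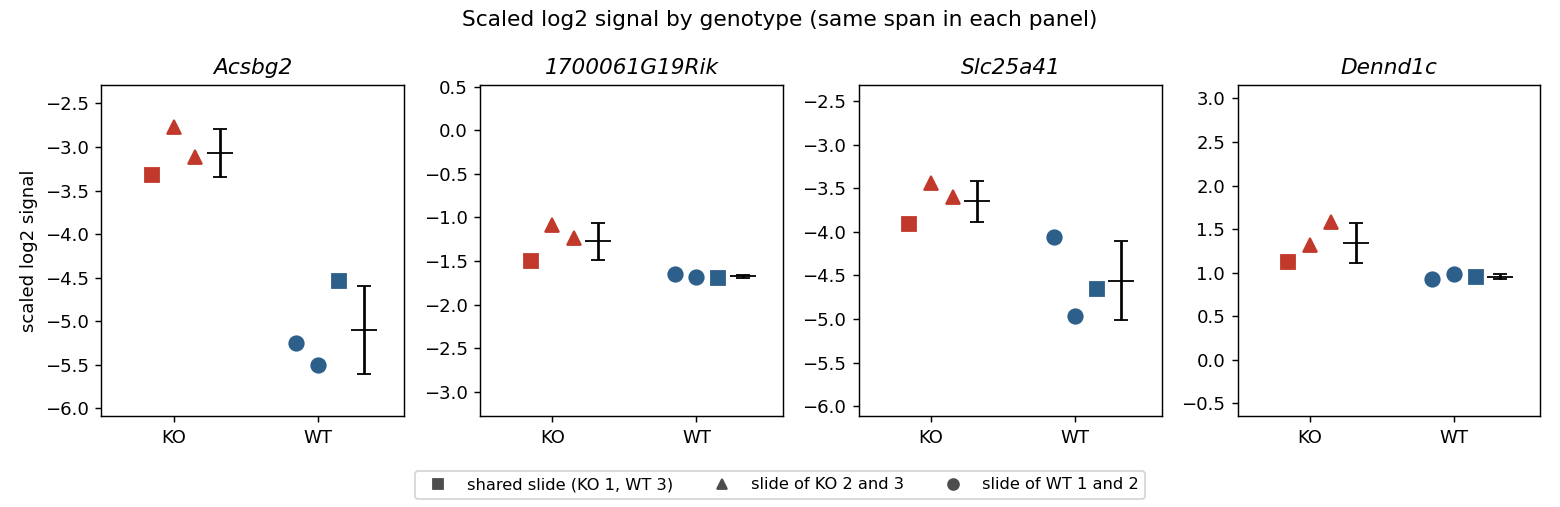
Scaled log2 signal of each gene by genotype, with 1 point per mouse and the mean and SD (n = 3) beside the points, over axes of equal span. Symbols mark the slide of each array. *Khsrp*-/- 1 was the lowest *Khsrp*-/- array for all 4 genes on this scale, though for none of them without scaling. WT points spread more for *Acsbg2* and *Slc25a41* than for the other genes.

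Within the *Khsrp*-/- genotype, array 1 was the lowest for each of the 4 genes, at 0.22 to 0.26 below the genotype mean on the scaled log2 scale. The 75th percentile subtracted there was 8.88, against 8.49 and 8.46 on *Khsrp*-/- 2 and 3. Without scaling, array 3 was the lowest for *Acsbg2*, *1700061G19Rik* and *Slc25a41*, and array 2 for *Dennd1c*. Array 2 was the highest for *Acsbg2*, *1700061G19Rik* and *Slc25a41*, and array 3 was the highest for *Dennd1c*. With scaling, no WT array was the lowest for all 4 genes. WT 3 was highest for *Acsbg2* (0.56 above the mean) and WT 1 for *Slc25a41* (0.50 above the mean). *Khsrp*-/- 1 was also the only *Khsrp*-/- array on a slide with a WT array. On that slide all 4 genes were higher in *Khsrp*-/- neocortex, as were 49.8% of all probes, and *Acsbg2* and *Slc25a41* were so by at least the fold threshold, as were 18.2% of all probes. The part of the slide in these differences was not tested.

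For description alone, in the limma fit over all probes 3 of the 4 genes, all but *Dennd1c*, lay past an unadjusted p of 0.05 and the fold threshold, as did 9.23% of all probes. With the Benjamini-Hochberg adjusted p in its place, and the study's methods name an adjusted p, 0 of the 4 did, as did 0.0826% of all probes. *Acsbg2* and *Slc25a41* were in this fit because they were well above background on all *Khsrp*-/- arrays, the group where they were higher, and on some WT arrays. The residual SD of the 4 genes between arrays of a genotype was 0.41 for *Acsbg2*, 0.37 for *Slc25a41*, 0.16 for *Dennd1c* and 0.15 for *1700061G19Rik*, against a median of 0.25 over all probes. The dim pair thus varied more between arrays of a genotype than the median probe, and the clearly detected pair less. No mouse was measured again, so variation between mice and error of measurement cannot be told apart in this spread.

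With the deposited table of normalized log2 values in place of the scanner signal, the differences were nearly the same, at 2.01 for *Acsbg2*, 0.41 for *1700061G19Rik*, 0.87 for *Slc25a41* and 0.36 for *Dennd1c*. The genotypes did not overlap for any of the 4 genes in those values, as for 12.8% of all probes. Background correction by normexp, which models the background in place of subtracting it, compressed the dim pair. This correction gave 0.68 for *Acsbg2* and 0.37 for *Slc25a41*, while *1700061G19Rik* stayed at 0.33 and *Dennd1c* at 0.37. Under this correction *Slc25a41* and *Dennd1c* therefore had equal differences to 2 decimals.

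**Figure D4:**
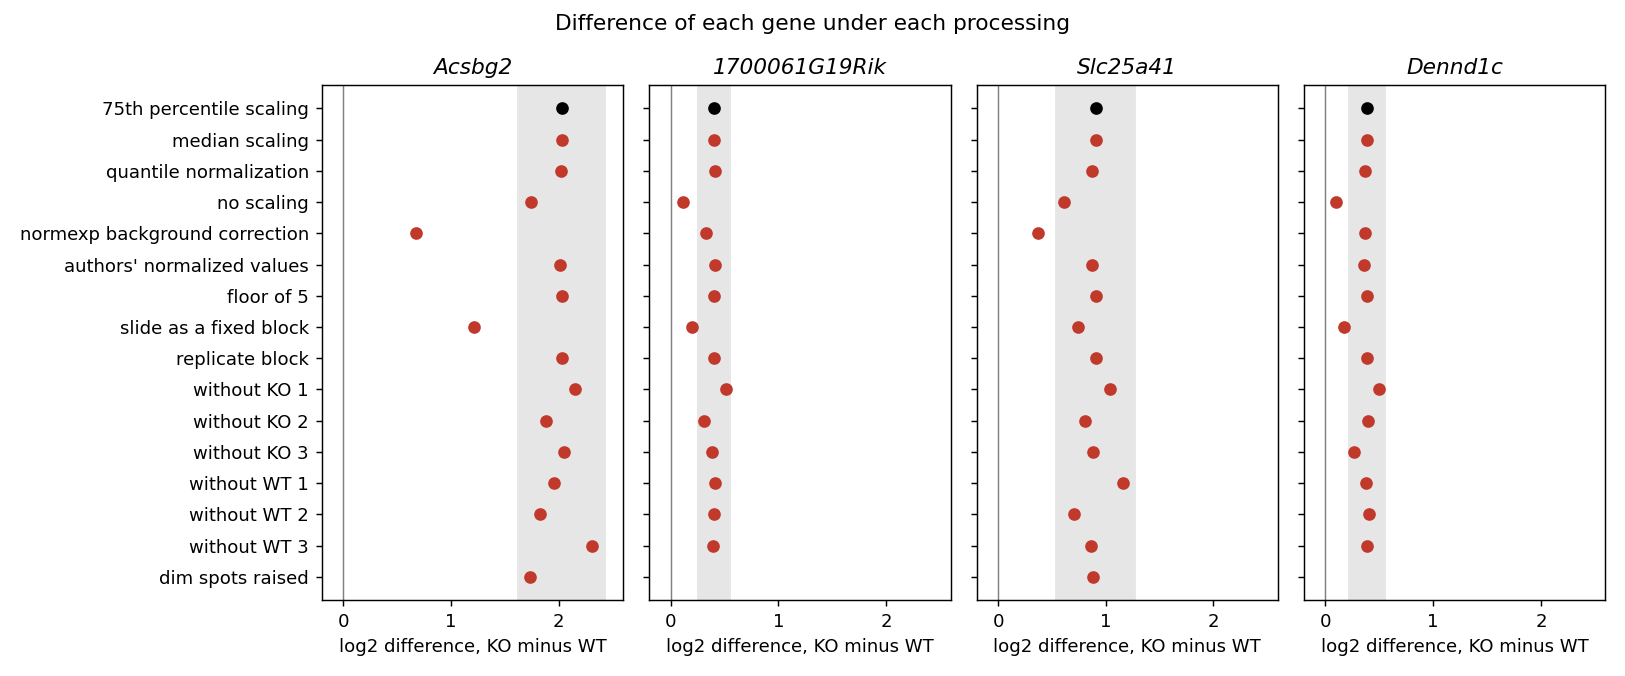
Log2 difference of *Khsrp*-/- minus WT for each gene (horizontal axis) under each processing (rows), with the main setting in black and a grey band of 1 pooled SD around it. All points lie above 0. *Acsbg2* was lowest with the normexp correction, at 0.68, and *1700061G19Rik* and *Dennd1c* were lowest without scaling, at 0.11 and 0.10.

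To see which named genes had a pattern most like each of the 4, scaled log2 profiles over the 6 arrays were centred on their means and compared by root mean square distance among 1674 named genes. The smallest distances to *Acsbg2* were those of *Pde6b* (0.20), *Seh1l* (0.21) and *Marveld3* (0.22). *Slc25a41* was most like *Lsm2* (0.14), *Acy1* (0.15) and *Wdr4* (0.16), of which *Lsm2* and *Wdr4* are also on chromosome 17, as are 4.18% of the named genes with a known chromosome. Both clearly detected genes had much closer matches. These were *Arl8b* (0.03), *Reep4* (0.04) and *App* (0.04) for *1700061G19Rik*, and *Csgalnact1*, *Selrc1* and *Kalrn*, all at 0.03, for *Dennd1c*. Of all these nearest genes, only *Lsm2* and *Wdr4* are known to be on chromosome 17, and neither lies within 1 Mb of *Khsrp*. Small differences give small distances between profiles, and most named genes come from the same higher block, so a short distance is a description alone.

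Among themselves, *1700061G19Rik* and *Dennd1c* had the closest profiles, with a distance of 0.12. The distance of *Slc25a41* was 0.36 to *1700061G19Rik* and 0.40 to *Dennd1c*. *Acsbg2* stood apart from all, at 0.68 from *Slc25a41*, 0.87 from *1700061G19Rik* and 0.89 from *Dennd1c*. The direct neighbours *Acsbg2* and *1700061G19Rik* were therefore less alike than *1700061G19Rik* and *Dennd1c*, which lie on opposite sides of *Khsrp*. The nearest place that any of the 4 genes took in the order of another was 240, that of *Slc25a41* in the order of *Acsbg2*.

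Relatives of the 4 genes were looked for by name. *Acsbg1*, *Slc25a23*, *Slc25a24*, *Dennd1a* and *Dennd1b* had no named probe and were not analysed here. *Slc25a25*, another ATP-Mg and phosphate carrier, stood in the lower block of the published list, in contrast to *Slc25a41*. Its scaled log2 signal was -2.39 ± 0.39 in *Khsrp*-/- and -1.60 ± 0.26 in WT neocortex (SD, n = 3 each), and its difference was -0.80 with scaling and -1.09 without. On the shared slide it was -0.26, and between the other slides -1.06. Every *Khsrp*-/- array lay below every WT array for *Slc25a25*, as for 4780 of 48364 probes with scaling. Like the 4 genes, *Slc25a25* was named because of this contrast.

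Just outside the window, between 500 kb and 1 Mb from *Khsrp*, *Plin4* was the one further named gene, and it encodes a coat protein of lipid droplets. It stood 36 coding genes from *Khsrp* on the side of *Acsbg2*. Its scaled log2 signal was -3.08 ± 0.29 in *Khsrp*-/- and -3.77 ± 0.23 in WT neocortex (SD, n = 3 each), a difference of 0.69 or 1.62-fold. *Plin4* too stood in the higher block, so it was named because of this contrast and is no outside comparison. It was well above background on all 6 arrays. On WT arrays 1, 2 and 3, however, 5.05%, 11.2% and 1.78% of the negative control spots were at least as bright. The genotypes overlapped without scaling. In the size of its difference *Plin4* lay between *Slc25a41* and *1700061G19Rik*, and it stood farther from *Khsrp* than all 4 genes. Its difference was 0.40 without scaling and 0.998 on the shared slide, where it was larger than that of *Slc25a41*. Among the 4 genes, *Acsbg2*, the farthest from *Khsrp* in genes, had the largest difference, and *Slc25a41*, the nearest, had the next largest. Both were dim, and the 31 other coding genes within 500 kb had no named probe. The part of distance from *Khsrp* was not tested.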

How the data were processed

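Neocortex RNA of 3 *Khsrp*-/- and 3 WT male mice was hybridized to 6 Agilent arrays in 1 colour. The authors deposited scanner output of Agilent Feature Extraction 11.0.1.1, whose processed signal is a background-subtracted intensity that is not scaled between arrays. They also deposited normalized log2 values, whose scaling method is not given in the sources used here. Marks of 0 or 1 for outliers, saturation and background are not measurements.

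Of 62939 spots, 1439 control spots and 300 spots named as negative controls were left out, as were outliers, and spots that shared 1 of the 60915 probe names were averaged as log2 signals. Each of the 4 genes had 1 probe with 1 spot per array, none of them an outlier or saturated. Arrays were scaled by subtraction of their 75th percentile. The 48438 probes well above background on at least 3 arrays were fitted with limma 3.58.1 in R 4.3.3 (lmFit, eBayes, Benjamini-Hochberg adjustment), with statmod 1.5.0 for the random block. The fit was tested on simulated data. The number of arrays limits the precision. Tables used pandas 2.3.3, and plots were drawn in matplotlib 3.10.9.

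Symbols came from the study's list of changed genes, matched to probes by their raw values within a relative tolerance of 0.0001 where needed, and from no other table. That list's fold changes and p-values were not used. The genes and lists were chosen with earlier results of these data known. Other genes were named by position within 500 kb (or 1 Mb) of *Khsrp*, as family relatives, or as the 3 named genes nearest in profile, taking the probe of highest mean signal where a gene had several. Gene order, the windows around *Khsrp* and promoters came from RefSeq for GRCm38.p6. The array design was built on mm9, and probes were joined to genes by name and not by position.

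The alternatives were median, quantile and no scaling, normexp with an offset of 50 on the median spot and background intensity (no mean was at hand), the authors' values, a floor of 5, other filters on dim probes, the methods' t-test as a count over all probes, 1.5-fold, slide and replicate number as blocks, and each array left out. Raising dim spots was chosen after the data were examined.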

Additional observations from a re-analysis of the deposited data

How the results depend on the processing

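The differences of the 4 genes stayed above 0 in all 58 values computed under alternatives, and 51 of these moved by less than 1 pooled SD. The other 7 were *Acsbg2* and *Slc25a41* with normexp (0.68 and 0.37), *1700061G19Rik* and *Dennd1c* without scaling (0.11 and 0.10), and *Acsbg2*, *1700061G19Rik* and *Dennd1c* with slide as a fixed block (1.22, 0.19 and 0.17), where only *Khsrp*-/- 1 and WT 3 bear on the difference. Leaving out 1 array gave 1.83 to 2.31 for *Acsbg2*, 0.31 to 0.51 for *1700061G19Rik*, 0.71 to 1.16 for *Slc25a41* and 0.27 to 0.50 for *Dennd1c*. The number of the 4 genes past the unadjusted thresholds was 3, where 4472 of 48438 probes were higher. It was 1, *Acsbg2*, without scaling (1221 of 48438 probes higher) and 1, again *Acsbg2*, with slide as a fixed block (1782 of 48438). It was 2 to 4 with 1 array left out (2542 to 6571 probes higher), 4 without *Khsrp*-/- 1 (6571 of 48437). The number was 4 with normexp (5398 of 48438) and the methods' t-test (3476), and 2 with slide as a random block (3389). With probes well above background on all 6 arrays it was 2 (4399 of 41974), *1700061G19Rik* and *Dennd1c*. *Acsbg2* and *Slc25a41* do not pass that filter. Past the adjusted thresholds the number was 0 (40 of 48438 probes higher), and 0 to 1 with 1 array left out. *Acsbg2* passed without *Khsrp*-/- 1, where 726 of 48437 probes were higher, and without WT 3, where 55 of 48437 were. Nothing is read from these counts, which repeat the contrast that named the genes. Over all probes, 4472 were higher and 3408 lower at the unadjusted thresholds, or 7880 in all. There were 4994 at 1.5-fold, 2867 with slide as a fixed block, and 4011 to 13036 with 1 array left out, namely 4011 without WT 1, 4387 without WT 2, 4786 without *Khsrp*-/- 3 and 13036 without *Khsrp*-/- 1. No scaling gave 1221 higher and 7286 lower, and normexp 5398 and 2749. The causes were not tested.

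With the replicate number as a block, the differences of the 4 genes were again 2.03, 0.40, 0.91 and 0.39, *Acsbg2* and *Slc25a41* passed the unadjusted thresholds, and 3522 probes were higher and 2694 lower. Deviations of same-numbered arrays correlated at -0.31, 0.10 and -0.31, and nothing in the labels pairs the mice by number. Within 1 Mb of *Khsrp* 5 genes had a named probe, against 4 within 500 kb. The signals of *Acsbg2* in WT and of *Slc25a41* in both genotypes lay within reach of negative control spots, which limits how well the size of their differences is known, and some of those spots were marked well above background themselves.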
